A study of Rattus norvegicus with 4 samples.

Results

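The matrix glycoproteins examined here are the adhesive and fibre-forming proteins laid down beside collagen: fibronectin, laminins, nidogens, fibrillins, latent TGF-beta binding proteins (LTBPs), fibulins, elastin, emilins, tenascins, thrombospondins, periostin, SPARC and matrilin 2. The set held 35 rat genes chosen by name and found in the peak lists by NCBI gene ID. The RefSeq table of the GRCr8 assembly gave an ID for 34 of them, and Tnxb was not matched and has no value here. At least 1 m6A peak was listed for 26 of the 35, out of 8729 genes with a peak in either list.

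In m6A-seq, fragmented RNA is immunoprecipitated with an antibody to N6-methyladenosine (m6A) and sequenced together with input RNA, and peaks are called where the immunoprecipitate is enriched over the input. Primary cardiac fibroblasts (CFs) from hearts of Sprague-Dawley rats at most 3 days old, labelled WT, received the empty plasmid (Vector) or, in cells labelled FTO overexpression, a plasmid carrying rat FTO cDNA (FTO), and were collected after 48 h. FTO is a demethylase that removes m6A from RNA. Each group had 1 m6A-IP and 1 input library and therefore 1 peak list, so the comparison is without replicates and no p-value is given. Intervals are 95% intervals for counting error only: exact Poisson for a number of peaks, Wilson for a share and order statistics for a median. They treat peaks of the same gene as independent, which these are not. The cells were cultures enriched by differential adhesion, and the transgene was expressed from a plasmid in whichever cells took it up.

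Laminins are trimers of an alpha, a beta and a gamma chain that polymerise into the sheet of the basement membrane, to which nidogens tie type IV collagen. Fibrillins form the microfibrils on which elastin is deposited, and LTBPs, fibulins and emilins attach to these fibres and control assembly or hold latent TGF-beta in the matrix. Tenascin C, thrombospondins, periostin and SPARC are matricellular proteins, which signal to cells more than they build structure and are produced by activated fibroblasts in the healing heart. m6A on mRNA is bound by reader proteins that affect the stability and translation of the transcript.

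Before the members are described, the lists were checked with the transfected gene and with cell type markers. For Fto, 3 Vector and 9 FTO peaks were listed, in which RNA from the plasmid and from the chromosomal gene was not distinguished. The whole lists held 21249 Vector peaks and 17796 FTO peaks, and the sequencing depth is unknown. Of 8 fibroblast markers, 6 had peaks, 12 in each list, with Pdgfra at 7 and 6 peaks and with Vim and Dcn at 0. Peaks were also listed on 5 of 8 cardiomyocyte markers (22 Vector and 24 FTO peaks), on 5 of 6 macrophage markers (15 and 9), on 1 of 6 endothelial markers (0 and 2, with Pecam1 and Cdh5 at 0) and on 1 of 4 smooth muscle markers (17 and 15, with Acta2, Cnn1 and Tagln at 0). A list of peaks does not measure transcript levels, which were not used, and the part of other cell types, of depth or of transcript levels in the results below was not tested. In bulk cells, fewer cells of a type and less RNA per cell cannot be told apart.

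The matrix glycoproteins carried 93 Vector peaks (75.1 to 113.9) and 63 FTO peaks (48.4 to 80.6), a ratio of 0.677, where all genes together gave a ratio of 0.837. Peaks were fewer in the FTO list for 15 of the 26 genes with a peak, as many for 5 and more for 6. Over all 8729 genes with a peak, 41.4% had fewer FTO peaks and 21.2% had more. Scaling the FTO numbers up to the size of the Vector list changed the difference of the members from -30 to -17.8 peaks. Members with more FTO peaks then numbered 11 instead of 6, since the scaling turns every tie into an excess. Unscaled, the 15 members with fewer FTO peaks went from 58 to 15 peaks, whereas the 6 members with more went from 26 to 39. Lama2, Matn2 and Lama4 held 17 of the 43 peaks by which the former group differed. Of the other 12 genes, Lamc1, Ltbp1, Ltbp2 and Emilin2 had 4 fewer FTO peaks each, and the rest had 1 or 2 fewer each. The ratio of 0.677 leans on Lama2 (7 and 1), Matn2 (6 and 0) and Lama4 (6 and 1). Together these genes differed by -17 peaks, where all members differed by -30. The low ratio is therefore not shown to be a trait of the set as a whole.

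**Figure D1:**
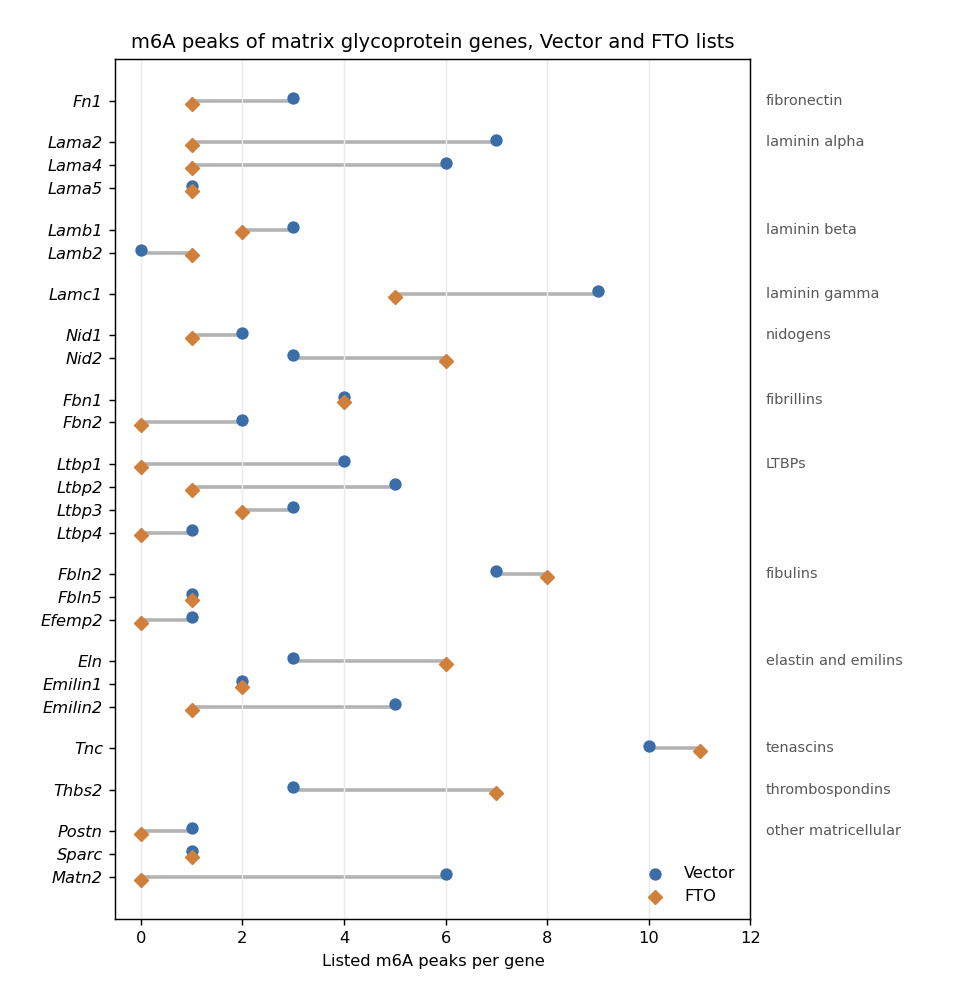
Number of listed m6A peaks per gene (horizontal axis) for the 26 matrix glycoprotein genes with a peak, ordered by subfamily, with the Vector list as circles and the FTO list as diamonds (small vertical offsets separate equal numbers). Lama2 (7 and 1), Lama4 (6 and 1) and Matn2 (6 and 0) have the longest lines to the left, and Thbs2 (3 and 7), Nid2 (3 and 6) and Eln (3 and 6) the longest to the right.

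Peaks were listed in the Vector group alone for 6 members, namely Fbn2, Ltbp1, Ltbp4, Efemp2, Postn and Matn2. These were 6 of the 25 members with a Vector peak, and 18.1% of all 7894 genes with a Vector peak had no FTO peak. Lamb2 was the reverse case, with no Vector peak and 1 FTO peak of 832 bp. No peak was listed in either group for Lama1, Lama3, Lamb3, Lamc3, Fbln1, Efemp1, Thbs1 and Thbs3. A gene without a listed peak is not thereby shown to lack m6A, since a transcript that is scarce gives few fragments.

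The room for a decrease grows with the number of Vector peaks, so members were also set beside genes with a like number. Of the 8 members with 5 or more Vector peaks, 6 had fewer FTO peaks (75.0%), where the share over all 1246 such genes was 67.7%. A choice by Vector peaks alone favours a lower FTO number in both sets, and genes were not grouped by FTO peaks. Lama2, Lama4 and Matn2, 3 of the 8, had at least 5 peaks fewer, which held for 8.83% of the 1246 genes. The 8 members went from 55 to 28 peaks, a ratio of 0.509, and all 1246 genes from 9120 to 7103, a ratio of 0.779. The ratio of the members again leans on Lama2 (7 and 1), Lama4 (6 and 1) and Matn2 (6 and 0). Of the 11 members with 2 to 4 Vector peaks, 6 had fewer FTO peaks (54.5%, beside 51.9% over all genes of that range), and the median difference was -1 peak in both. Their total of 32 and 31 peaks came from Thbs2, Nid2 and Eln, which had 9 and 19, while the other 8 had 23 and 12. Of the 6 members with 1 Vector peak, 3 had no FTO peak (50.0%, beside 31.5% over all such genes).

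**Figure D2:**
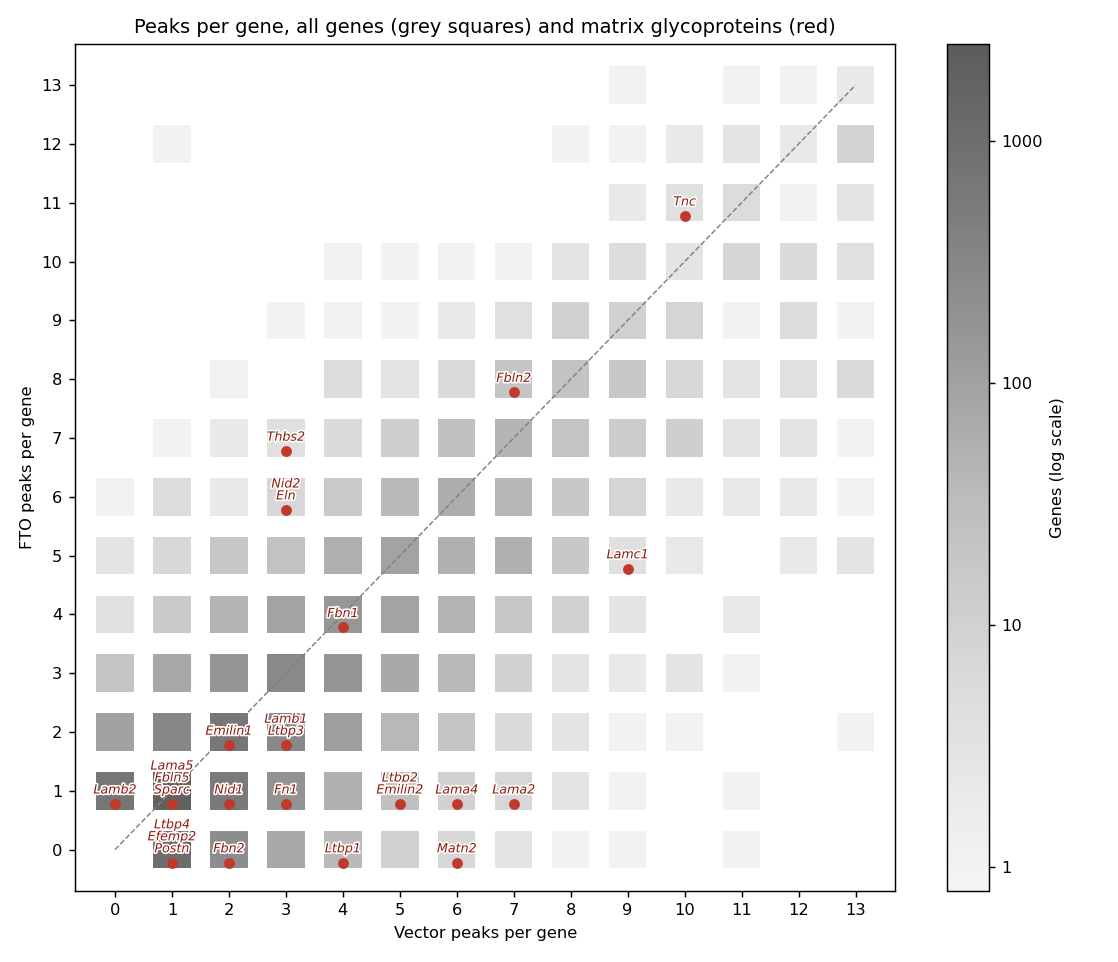
Vector peaks per gene (horizontal axis) against FTO peaks per gene (vertical axis), with the grey of each square giving the number of genes on a log scale, the dashed line equal numbers, and red points the 26 matrix glycoprotein genes, drawn low in their square under their names. Matn2, Lama4 and Lama2 lie on the sparse lower edge and Thbs2, Nid2 and Eln on the sparse upper edge, while 63 genes with over 13 peaks in a list lie outside the axes.

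The peaks were next compared 1 by 1. Positions were not used, so a Vector peak and an FTO peak were paired when they lay on the same gene and were equally long in bp. A peak that was called with other ends in the FTO group is therefore unpaired. Of the 93 Vector peaks, 40 had such a partner and 53 had none, which is 57.0% (46.8% to 66.6%). The share over all genes was 42.7%, which lies below this interval. The interval takes peaks of the same gene as independent, and Lama2, Lama4 and Matn2 held 6, 5 and 6 of the 53. It therefore does not set the members apart from all genes. The share of 57.0% is not separate from the peak numbers. With any FTO peak of the same gene accepted as partner, 43 of the 93 had none (46.2%, beside 27.8% over all genes). These are the 43 peaks by which the 15 members with fewer FTO peaks differed. That rule restates the peak numbers and adds no check of the pairing. Of the 63 FTO peaks, 23 had no Vector partner, which is 36.5% (25.7% to 48.9%), and the share over all genes, 31.6%, lies within this interval. Peak names carry running numbers, and successive numbers fell on the same chromosome for 99.4% of Vector and 99.3% of FTO peaks. In all 9 members with at least 2 pairs the paired lengths could be read in the same order in both lists. In Tnc this takes the later of the FTO peaks of 264 bp. The lengths of each gene are given below in this order, without reference to the direction of the transcript.

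**Figure D3:**
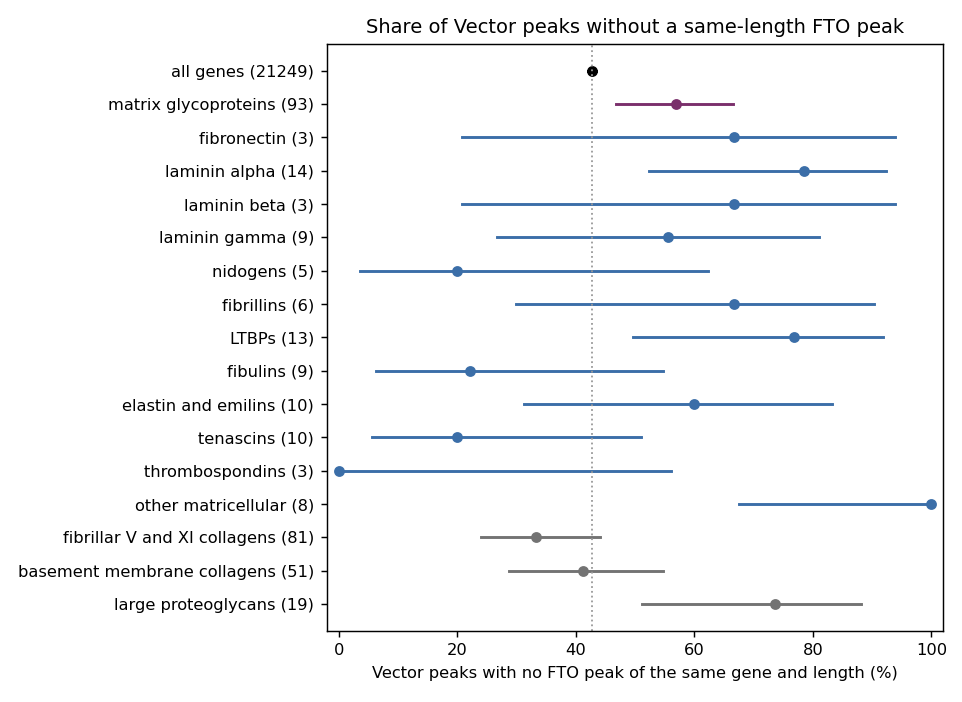
Share of Vector peaks without an equally long FTO peak on the same gene (horizontal axis, percent) for all genes, the matrix glycoproteins, their 12 subfamilies and 3 other groups of matrix genes, with the number of Vector peaks in parentheses. Points are shares, bars are 95% Wilson intervals for counting error, and the dotted line is the share over all genes (42.7%). Laminin alpha chains (78.6%), LTBPs (76.9%) and other matricellular genes (100%) have intervals wholly to the right of the line. Of the 8 Vector peaks of the other matricellular genes, 6 are in Matn2, which has no FTO peak. Fibronectin, laminin beta and gamma chains, fibrillins and elastin with emilins (55.6% to 66.7%) stand to the right, and thrombospondins (0%), fibulins (22.2%), tenascins and nidogens to the left, all with intervals that reach it.

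In the laminins, 26 Vector peaks (17.0 to 38.1) stood beside 11 FTO peaks (5.49 to 19.7), and 18 of the 26 had no FTO partner (69.2%, 50.0% to 83.5%). The alpha chains, which bind integrins and dystroglycan on the cell surface, gave most of this difference, with 14 Vector and 3 FTO peaks. Among peaks of at least 200 bp alone, the difference of the alpha chains was -3 instead of -11. Lama2, the alpha chain of muscle basement membranes, had Vector peaks of 243, 99, 112, 163, 211, 223 and 155 bp and an FTO peak of 99 bp. Lama4, the alpha chain of vascular and cardiac basement membranes, had Vector peaks of 623, 75, 111, 112, 168 and 194 bp and an FTO peak of 623 bp. In both genes the single FTO peak had the length of 1 of the Vector peaks, the shortest in Lama2 and the longest in Lama4. Lama5, a widespread alpha chain, had 1 peak of 324 bp in each list.

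The beta and gamma chains differed from each other. Lamb1 had Vector peaks of 204, 208 and 258 bp and FTO peaks of 208 and 177 bp. With the single FTO peak of Lamb2, the beta chains had 3 peaks in each list. Lamc1, the gamma chain of most laminins, was the member with the most Vector peaks after Tnc. Its 9 Vector peaks measured 842, 159, 200, 150, 145, 138, 206, 179 and 659 bp, and its 5 FTO peaks 233, 200, 145, 206 and 179 bp. The peaks at both ends of the Vector series, which were also its longest, had no FTO partner, and 4 of the inner ones did.

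The nidogens went opposite ways. Nid1 had Vector peaks of 158 and 317 bp and an FTO peak of 317 bp alone. All 3 Vector peaks of Nid2, of 707, 233 and 275 bp, had an FTO partner, and 3 FTO peaks of 170, 246 and 309 bp came in addition. Nidogens together had 5 Vector and 7 FTO peaks, so the laminins and nidogens, as the basement membrane glycoproteins, had 31 and 18.

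**Figure D4:**
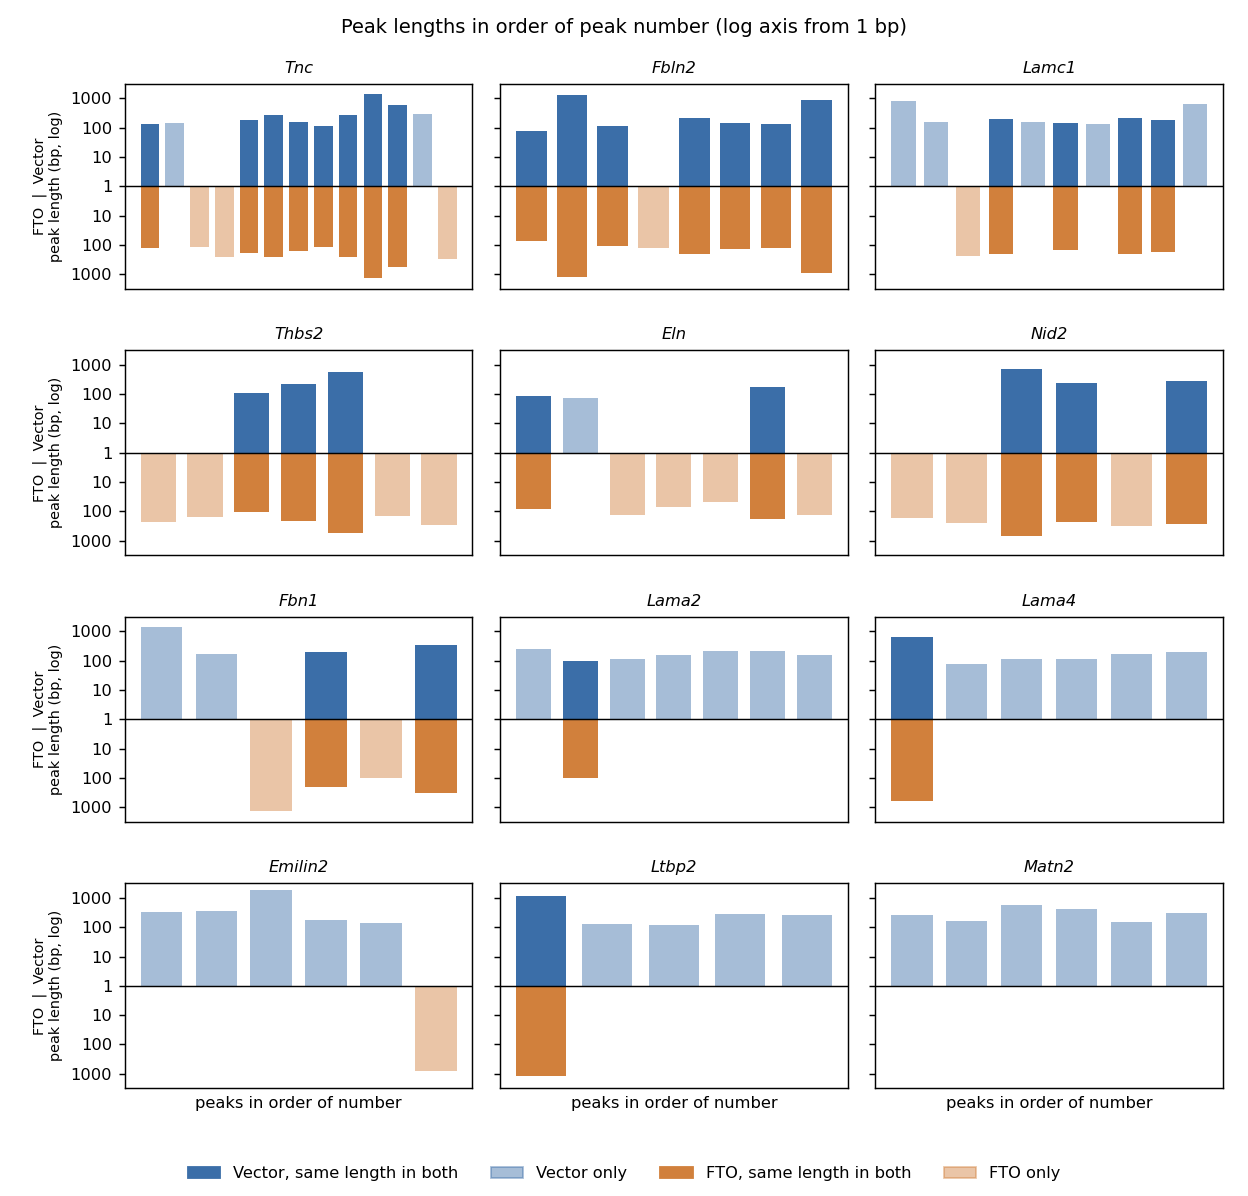
Peak lengths in bp on a log axis that starts at 1 bp, Vector upwards and FTO downwards, for the 12 members with the most peaks over both lists, in the order of peak numbers. Dark bars stand on top of each other where a Vector and an FTO peak are equally long and in matching order, pale bars have no such partner, and where pale bars of both lists adjoin their order between the lists is arbitrary. In Lama2, Lama4 and Ltbp2 a single pair is left in the FTO list, in Thbs2 and Nid2 pale FTO bars stand around the pairs, and Matn2 has no FTO bar.

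The elastic fibre genes, that is fibrillins, LTBPs, fibulins, elastin and emilins, had 38 Vector peaks (26.9 to 52.2) and 25 FTO peaks (16.2 to 36.9). The 4 LTBPs held most of the difference. Each had fewer FTO peaks, with 13 against 3 in total, and 10 of the 13 Vector peaks had no partner (76.9%, 49.7% to 91.8%). Ltbp1, which anchors latent TGF-beta to the matrix, had Vector peaks of 954, 150, 292 and 661 bp and no FTO peak. Ltbp2, which binds fibrillin but not latent TGF-beta, had Vector peaks of 1181, 126, 120, 284 and 253 bp and an FTO peak of 1181 bp alone. Ltbp3 had Vector peaks of 501, 330 and 600 bp and FTO peaks of 501 and 330 bp. Ltbp4, which acts in elastic fibre assembly, had a single Vector peak of 243 bp and no FTO peak. All 3 FTO peaks of the LTBPs thus had a Vector partner of the same length.

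Fbn1, the main fibrillin of postnatal microfibrils, had 4 peaks in each list. Its Vector peaks measured 1384, 175, 198 and 339 bp and its FTO peaks 1392, 198, 99 and 339 bp. The long peaks differed by 8 bp and so counted as unpaired, and they were paired when lengths within 10% were accepted. Fbn2, the fibrillin of developing tissues, had Vector peaks of 410 and 123 bp and no FTO peak.

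The fibulins had 9 peaks in each list, and 8 of the 9 FTO peaks were in Fbln2. All 7 Vector peaks of Fbln2, a fibulin of the developing heart and of vessel walls, had an FTO partner, at 74, 1292, 112, 210, 144, 129 and 911 bp, with 1 further FTO peak of 130 bp among them. Fbln2 was the member with 5 or more Vector peaks in which no Vector peak lacked a partner. Fbln5, which carries elastin to microfibrils, had 1 Vector peak of 959 bp and 1 FTO peak of 941 bp. Efemp2, which encodes fibulin 4, had a Vector peak of 299 bp alone.

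Elastin and the emilins together had 10 Vector and 9 FTO peaks, a total that hid different patterns. Eln, the elastic core of the fibre, had short Vector peaks of 85, 75 and 180 bp and FTO peaks of 85, 135, 72, 48, 180 and 138 bp. Emilin1, a microfibril protein that restrains TGF-beta processing, had peaks of 1926 and 612 bp in both lists. Its relative Emilin2 had Vector peaks of 338, 369, 1917, 176 and 143 bp and a single FTO peak of 840 bp. The peaks of Emilin2 covered 2943 bp with Vector and 840 bp with FTO, the largest difference in summed length among the members.

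Fibronectin and the matricellular genes had 24 Vector and 20 FTO peaks, and genes with fewer and with more FTO peaks stood side by side. Fn1, which encodes the adhesive protein fibronectin, had Vector peaks of 165, 270 and 425 bp and an FTO peak of 165 bp. Tnc, whose product tenascin C reappears in the injured heart, had the most peaks of all members, 10 and 11. Its Vector peaks measured 131, 144, 186, 270, 157, 116, 264, 1410, 582 and 285 bp, and its FTO peaks 131, 120, 264, 186, 270, 157, 116, 264, 1410, 582 and 303 bp. Of the 10 Vector peaks of Tnc, 8 had an FTO partner, and the last peak of the series was 285 bp long with Vector and 303 bp with FTO.

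Thbs2, which encodes the collagen-associated thrombospondin 2, had 3 Vector and 7 FTO peaks, the largest excess of FTO peaks among the members when peaks of all lengths were counted. Its Vector peaks of 108, 219 and 557 bp all had an FTO partner. FTO peaks of 235 and 160 bp preceded these partners, and peaks of 149 and 289 bp followed. Among peaks of at least 200 bp alone, Thbs2 had 2 and 4 peaks, Nid2 had 3 and 5, and Eln had none in either list. Thbs2, Nid2 and Eln were the 3 members with at least 3 more FTO than Vector peaks, which held for 1.39% of the 8729 genes. Over all genes, 45 had at least 4 more FTO peaks, Thbs2 among them.

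Matn2, a filament-forming adaptor that links other matrix proteins, stood at the other end with 6 Vector peaks of 267, 162, 570, 414, 153 and 313 bp and no FTO peak. Of 859 genes with 6 or more Vector peaks, 13 had no FTO peak. Postn, which encodes periostin, a secreted marker of activated fibroblasts, had 1 Vector peak of 149 bp and no FTO peak. Sparc, a collagen-binding matricellular gene, had 1 peak in each list, of 122 bp and 82 bp. None of the 8 Vector peaks of Postn, Sparc and Matn2 had a partner (100%, 67.6% to 100%). Matn2 held 6 of them, and neither Matn2 nor Postn had an FTO peak to pair with, so the share rests mostly on 1 gene.

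In the 19 members with peaks in both lists, the lists could be nested in either way. Every FTO peak had a Vector partner in 8 of the 19, where the share over all 6462 such genes was 48.5%. Every Vector peak had an FTO partner in 5 of the 19, where that share was 38.0%. No pair of equal length was found in Fbln5, Emilin2 and Sparc. The longest peak was of equal length in both lists in 10 of the 19 (52.6%), beside 60.6% over all genes.

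Peak lengths were alike in both groups as a whole. The median was 211 bp (179 to 270) over the Vector peaks and 210 bp (177 to 270) over the FTO peaks, where the median over all genes was 203 bp and 228 bp. Peaks under 200 bp made up 44.1% of the Vector and 44.4% of the FTO peaks of the members. Their summed length was 33565 bp in the Vector and 23269 bp in the FTO list, a ratio of 0.693 beside 0.932 over all genes. Summed length was smaller in the FTO list for 18 members, larger for 6 and equal for Lama5 and Emilin1, and it was smaller for 47.2% of all 8729 genes.

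**Figure D5:**
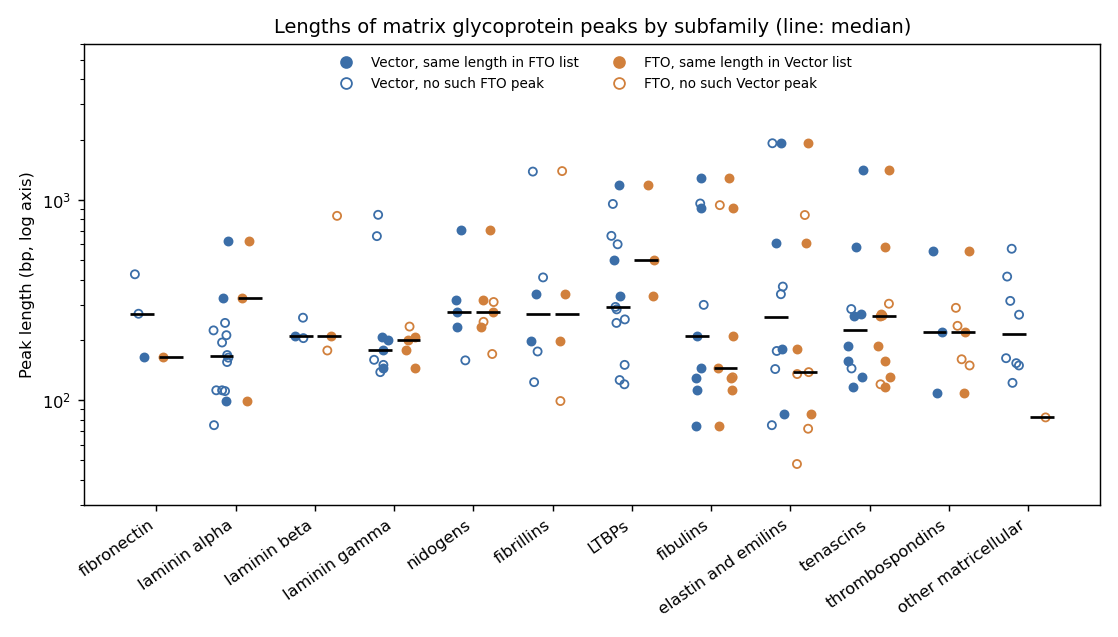
Length of each matrix glycoprotein peak in bp (log axis) by subfamily, Vector on the left and FTO on the right of each pair, filled where the other list holds a peak of the same gene and length and open where it does not. Black lines are medians. Laminin alpha chains have 11 open Vector points, the longest at 243 bp, and 3 filled FTO points, whereas LTBPs have open Vector points across the range of lengths.

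The unpaired share of the Vector peaks differed from all genes most in the middle range of lengths. It was 63.9% (47.6% to 77.5%) for the 36 peaks from 100 to under 200 bp, beside 43.3% over all genes, and 59.4% (42.3% to 74.5%) for the 32 peaks from 200 to under 500 bp, beside 37.2%. It was 40.0% for the 5 peaks under 100 bp, beside 50.7%. For the 20 peaks of 500 bp or longer it was 45.0% (25.8% to 65.8%), beside 43.1%. Of 14 members with a Vector peak of at least 500 bp, 11 also had an FTO peak of at least 500 bp, as did 82.8% of all genes with such a Vector peak. The exceptions were Lamc1, Ltbp1 and Matn2.

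Other matrix gene groups in the same lists are given for comparison. Fibrillar collagens V and XI had 81 Vector and 57 FTO peaks, a ratio of 0.704 near that of the glycoproteins, and 33.3% of their Vector peaks had no partner (24.0% to 44.1%). This interval lies below the 46.8% to 66.6% of the glycoproteins. Their peaks were shorter, with a median of 57.0 bp in the Vector list beside 211 bp, and many had the same length. With 1 peak per gene and length, 28 of the 81 Vector peaks were left and 28.6% had no partner. The wider interval of that share, 15.3% to 47.1%, overlaps the one of the glycoproteins. Basement membrane collagens had 51 and 41 peaks, and 41.2% of the Vector peaks had no partner (28.8% to 54.8%). The laminins that share their sheet had 69.2%, with an interval that overlaps. Large proteoglycans had 19 and 8 peaks and 73.7% without a partner (51.2% to 88.2%), which overlaps the interval of the glycoproteins. The difference between the gene groups was not tested.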

How the data were processed

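Peak lists of m6A-seq on neonatal rat CFs were analysed, 1 list for each group of 1 m6A-IP and 1 input library. The authors deposited for each peak a name with the prefix MACS, the peak length in bp as the one measured value, not normalized, an Ensembl transcript and, except for 248 Vector and 213 FTO peaks, an NCBI gene ID. The submitters' processing notes name cutadapt 1.9.3, HISAT2 2.0.4 and the build rn6. The peak caller's settings, its threshold and the annotation are not given in the sources used here. Peak numbers were not corrected for sequencing depth, which is unknown. Columns of unmapped samples numbered 0.

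Peaks were counted by gene ID over all transcripts, and those of Fn1, Lamc1, Ltbp2 and Eln lay on 2 transcripts each. Symbols came from the RefSeq table of GRCr8, which matched 7489 of 7723 Vector and 6920 of 7145 FTO gene IDs, and no coordinates were taken from it. Peaks were paired 1 to 1 by gene and length. Simulated lists tested only whether equal lengths were paired as intended. They held no small shifts of peak ends, so they do not test how well equal length stands for the same peak. The members and all gene lists were chosen with earlier results of these data known. Named genes are all members, Fto, the markers and, of each other list, the 3 genes with the most peaks over both lists, ties by symbol. No sequence is shown, since the lists were used without positions. Alternatives were minimum lengths, 1 peak per gene and length, scaling by list size, 1 transcript per gene, other pairing rules, means, leaving out Tnc and, for the other matrix gene groups and chosen after seeing the data, 1 peak per gene and length. Python 3.11.15, numpy 2.4.6, pandas 2.3.3, scipy 1.17.1 and matplotlib 3.10.9 were used.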

Additional observations from a re-analysis of the deposited data

How the results depend on the processing

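No replicate could be left out. No paired analysis was possible because there is only 1 peak list for a group. Of 131 alternative values, 95 stayed close to the reported value, 33 moved and 3 turned direction. Tnc, with 10 and 11 peaks, was the only gene left out, which raised the unpaired share of member Vector peaks from 57.0% to 61.4%. Lama2, Lama4 and Matn2, which had the largest decreases in peak number, were not left out, so dependence on them was not tested. With peaks of at least 200 bp, 52 Vector and 35 FTO peaks were left, with medians of 334 and 324 bp, and the laminin alpha difference shrank from -11 to -3, that of Lamc1 from -4 to -1 and that of Thbs2 from 4 to 2. Mean lengths were 360.9 bp (Vector) and 369.3 bp (FTO), so the mean was 8.44 bp longer in the FTO list where the median was 1 bp shorter, and with peaks of at least 100 bp the median was 6 bp longer. With any peak of the same gene as partner, 46.2% of the members' Vector peaks (36.5% to 56.3%) and 20.6% of their FTO peaks had none, beside 27.8% and 13.8% over all genes. The result of this rule follows from the numbers of peaks per gene alone. With FTO numbers multiplied by 1.19, the Vector list size over that of the FTO list, 11 members had more FTO peaks and 0 as many, the member difference was -17.8 instead of -30, and elastin and emilins had 0.746 peaks more instead of 1 fewer. As many FTO peaks were listed for 3 members with peaks of at least 100 bp. The number of members with fewer FTO peaks ran from 12 to 17 over the alternatives. No member peak exceeded 2000 bp.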

Other observations

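Further matrix gene lists were counted in the same way. Of 34 relatives of the members, 32 were matched and 10 had peaks, 18 in the Vector and 20 in the FTO list, with fewer FTO peaks for 6 genes and more for 4. Smoc2, a calcium-binding relative of SPARC, had 2 Vector and 8 FTO peaks. Ntn1, whose product netrin 1 has laminin-like domains, had 0 and 6, and Tgfbi, a periostin relative, had 4 and 1. Genes on both sides were found over all 8729 genes with a peak, of which 41.4% had fewer FTO peaks and 21.2% had more. The same shares are the background of the lists below.

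Of 23 receptors of matrix glycoproteins, 19 had peaks, 37 Vector and 27 FTO, with fewer FTO peaks for 7, as many for 6 and more for 6. Itga6, an integrin chain that binds laminins, had 5 Vector peaks and 1 FTO peak, and Itga9, which binds tenascin C among others, had 5 and 0. Itga3, another laminin receptor chain, had 4 and 5. Of 19 crosslinking and processing genes, 18 were matched and 15 had peaks, 42 Vector and 36 FTO, with fewer FTO peaks for 5, as many for 4 and more for 6. Adamtsl2, whose product binds fibrillin 1 and LTBP1, had 7 Vector peaks and no FTO peak. Loxl1, an elastin crosslinking enzyme, had 5 in each list, and Furin, a protease that activates secreted precursors, had 3 and 4.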
